A study of Homo sapiens with 5 samples.

Results

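The clustered histone genes are the genes named HIST1 to HIST4, which lie in groups on a few chromosomes and encode the linker histone H1 and the core histones H2A, H2B, H3 and H4. They were taken as every gene whose symbol begins with HIST, a cluster number from 1 to 4 and H. The deposited tables held 44 such genes among 12497, of which 2 encode H1, 12 encode H2A, 12 encode H2B, 9 encode H3 and 9 encode H4. Gene expression was measured as FPKM, fragments scaled to transcript length and to the library's mapped fragments, in 5 RNA libraries of MDA-MB-231, an established human triple-negative breast cancer cell line. The si-LY6E-DT library came from cells transfected with a Smart Silencer against the long noncoding RNA LY6E-DT, and si-NC was its negative control, both by the library labels. The series' treatment text instead pairs each target with the silencer meant for the other, a conflict that was not resolved here, and the library labels are followed. Another library was labelled as a knockdown of HNRNPC, an abundant nuclear protein that binds runs of U in RNA. The other pair came from RNA immunoprecipitation (RIP), in which lysate was incubated with magnetic beads carrying an antibody to HNRNPC. This pair held the recovered RNA (RIP-HNRNPC) and the lysate before recovery (RIP-INPUT). No silencer is named for the RIP libraries, and an IgG control library was not analysed here. Each group had 1 library, so nothing below could be checked against replicates and no SD, interval or p-value is given.

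Most messenger RNAs end in a poly(A) tail, but the mRNAs of replication-dependent histone genes end in a short stem-loop. The stem-loop binding protein SLBP holds this structure, and the U7 small nuclear ribonucleoprotein guides a cut just after it, so that the mature mRNA is not polyadenylated. These genes have no introns, are transcribed mainly in S phase when new DNA must be packaged, and their mRNAs are degraded when replication stops. Some of them can also be made as longer, polyadenylated transcripts. Histone variant genes such as H2AFZ and H3F3B lie outside the clusters and give polyadenylated mRNA throughout the cell cycle.

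The stem-loop is what sets these transcripts apart, and it was located in the GENCODE 29 transcripts within 100 bases of the stop codon. It was found in 20 of the 43 histone genes with an annotated transcript. Another 20 genes had no annotated base after the stop codon, so the stem-loop could not be looked for in them, and HIST1H1E, HIST1H2BJ and HIST1H4C had annotated bases but no match. Among 18 histone genes with a transcript annotated for at least 100 bases after the stop, 16 carried it in such a transcript. Of 11894 other genes in the tables with as much annotation, 1 carried it, the variant gene H2AFX. The following examples cover all types of core histone, with the 16 bases of the stem-loop in capitals and 5 flanking bases on each side (GENCODE 29 on GRCh38, read on the strand of the gene).
HIST1H2AI, chr6:27808642-27808667, plus strand: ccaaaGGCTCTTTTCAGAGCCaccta
HIST1H2BD, chr6:26158582-26158607, plus strand: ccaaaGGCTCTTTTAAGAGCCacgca
HIST1H3H, chr6:27810511-27810536, plus strand: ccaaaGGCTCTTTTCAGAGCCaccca
HIST1H4B, chr6:26026896-26026921, minus strand: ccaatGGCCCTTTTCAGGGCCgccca
HIST2H4A, chr1:149833027-149833052, plus strand: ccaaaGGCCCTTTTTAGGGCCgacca
The 20 stem-loops came in 5 versions of their 16 bases. All 20 held a run of at least 4 T (U in the RNA) in the loop region, and in HIST2H4A and its copy HIST2H4B the run had 5. HNRNPC binds runs of U, but binding to these sites was not measured here. Runs of U elsewhere depended on how much transcript was annotated. In the longest transcript, the 28 histone genes of 1 exon and under 1000 bases, most of them coding-only models, had a median of 0 runs of 5 or more U per kilobase. The 14 histone genes with a longer or spliced transcript had a median of 2.53, against 1.93 per kilobase over 10182 other genes. In the last 300 coding bases, which can be compared in both, 1 of 42 histone genes (2.38%) had such a run, against 1658 of 9899 other genes (16.7%).

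The start regions of these genes also differ by type, and 37 of the 44 genes had an entry among the RefSeq promoters (GRCh38.p14, 250 bases before to 50 bases after the start). A gene from each core type is shown because it was among the highest of its type in the immunoprecipitate or, for HIST2H2BE, because it carries all 3 motifs. Capitals mark the sequences CCAAT and TATAAA and the octamer ATTTGCAT, each searched on both strands and anywhere in the window.
HIST1H2AM, chr6:27893136-27893435, minus strand: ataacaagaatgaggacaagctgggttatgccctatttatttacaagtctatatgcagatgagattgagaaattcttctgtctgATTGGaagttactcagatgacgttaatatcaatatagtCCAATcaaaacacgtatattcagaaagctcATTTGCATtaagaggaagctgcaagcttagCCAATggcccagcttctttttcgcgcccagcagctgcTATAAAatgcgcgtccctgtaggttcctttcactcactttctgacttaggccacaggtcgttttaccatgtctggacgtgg
HIST2H2BE, chr1:149886633-149886932, minus strand: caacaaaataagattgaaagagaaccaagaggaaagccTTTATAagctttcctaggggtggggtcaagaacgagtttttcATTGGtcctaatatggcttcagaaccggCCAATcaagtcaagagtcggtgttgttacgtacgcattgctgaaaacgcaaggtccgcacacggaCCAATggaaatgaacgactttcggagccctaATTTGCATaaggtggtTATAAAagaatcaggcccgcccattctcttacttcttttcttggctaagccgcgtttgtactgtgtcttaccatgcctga
HIST1H3B, chr6:26032050-26032349, minus strand: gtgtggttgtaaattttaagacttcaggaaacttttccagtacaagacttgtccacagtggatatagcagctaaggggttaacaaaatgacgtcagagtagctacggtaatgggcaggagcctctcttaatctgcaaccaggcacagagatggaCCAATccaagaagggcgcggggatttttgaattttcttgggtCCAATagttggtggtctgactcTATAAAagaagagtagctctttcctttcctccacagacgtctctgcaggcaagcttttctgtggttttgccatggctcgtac
HIST1H4K, chr6:27831511-27831810, minus strand: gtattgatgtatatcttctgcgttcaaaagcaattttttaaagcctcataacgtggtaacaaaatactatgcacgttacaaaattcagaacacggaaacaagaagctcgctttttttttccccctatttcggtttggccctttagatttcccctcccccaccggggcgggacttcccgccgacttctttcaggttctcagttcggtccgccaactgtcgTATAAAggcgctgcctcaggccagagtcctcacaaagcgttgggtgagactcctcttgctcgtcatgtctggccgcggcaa
CCAAT was present in 30 of the 37 histone promoters (81.1%), against 34.6% of all 35116 promoters. Every H1, H2A, H2B and H3 promoter held it and none of the 7 H4 promoters did. TATAAA was present in 29 of 37 (78.4%), against 11.5% of all promoters. This counts HIST1H2BC, HIST1H2BM and HIST1H2BO, which held it only on the opposite strand. It also counts HIST1H2BE and HIST4H4, where its first base lay at −189 and −250 relative to the start. The octamer ATTTGCAT, which POU domain factors such as POU2F1 bind, was present in 15 of 37 (40.5%), against 1.77% of all promoters. It occurred in 7 of 10 H2A and 8 of 10 H2B promoters and in no H1, H3 or H4 promoter. Neighbouring histone genes are often read from opposite strands, and 14 of the 37 windows overlap another one of the set, so the same bases count in both.

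The tables listed 11306 to 11755 genes per library, with FPKM sums from 157407 (RIP-HNRNPC) to 272563 (RIP-INPUT), and the sequencing depth is unknown. HNRNPC was at 48.8 FPKM in the si-HNRNPC-labelled library against 52.2 in si-NC, a log2 difference of −0.10, so the label is not borne out and the library is called si-HNRNPC-labelled throughout. Mitochondrially encoded mRNA took 29.8% of the FPKM sum in RIP-INPUT against 7.20% to 9.92% in the other libraries. All 5 markers of MDA-MB-231 (VIM, CD44, CAV1, AXL and S100A4) were listed in every library, summing to 696 to 863 FPKM. Of 5 luminal breast markers 2 to 3 were listed, with KRT8 at 1.72 to 44.6 FPKM. Of 5 fibroblast markers, 2 were listed in the si-LY6E-DT library and si-NC, summing to at most 2.42 FPKM, and none elsewhere. Of 5 leukocyte markers, 2 were listed in the RIP pair, summing to at most 2.18 FPKM, and none elsewhere.

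Not every histone gene was listed in every table. Both RIP tables listed 43 of the 44, si-LY6E-DT and si-NC 31 each, and 30 were listed for the si-HNRNPC-labelled library. In all 5 libraries 26 were listed, 9 only in the RIP pair, and 4 in the RIP pair and the si-HNRNPC-labelled library. Another 4 were in every table but the one labelled si-HNRNPC. The H3 gene HIST2H3PS2 was listed only in the si-LY6E-DT library (0.566 FPKM) and si-NC (0.392). A gene that is not listed has no value there and is not read as 0.

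Histone mRNA was more abundant in the HNRNPC immunoprecipitate than in any other library. The listed histone genes summed to 1961 FPKM there, against 297 in its input, 442 in the si-HNRNPC-labelled library, 129 in the si-LY6E-DT library and 115 in si-NC. As a share of each library's FPKM sum, this was 1.25% in the immunoprecipitate, 0.109% in the input, 0.195% in the si-HNRNPC-labelled library, 0.0662% in the si-LY6E-DT library and 0.0590% in si-NC. The median histone gene was at 31.9 FPKM in the immunoprecipitate and at 1.19 in the input, 2.21 in the si-HNRNPC-labelled library, 1.65 in the si-LY6E-DT library and 1.04 in si-NC. Over the 26 genes listed in all 5 libraries, the sums were 1547, 291, 440.4, 128 and 113 FPKM in the same order. The difference in the number of listed genes therefore does not set the order of the sums.

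**Figure D1:**
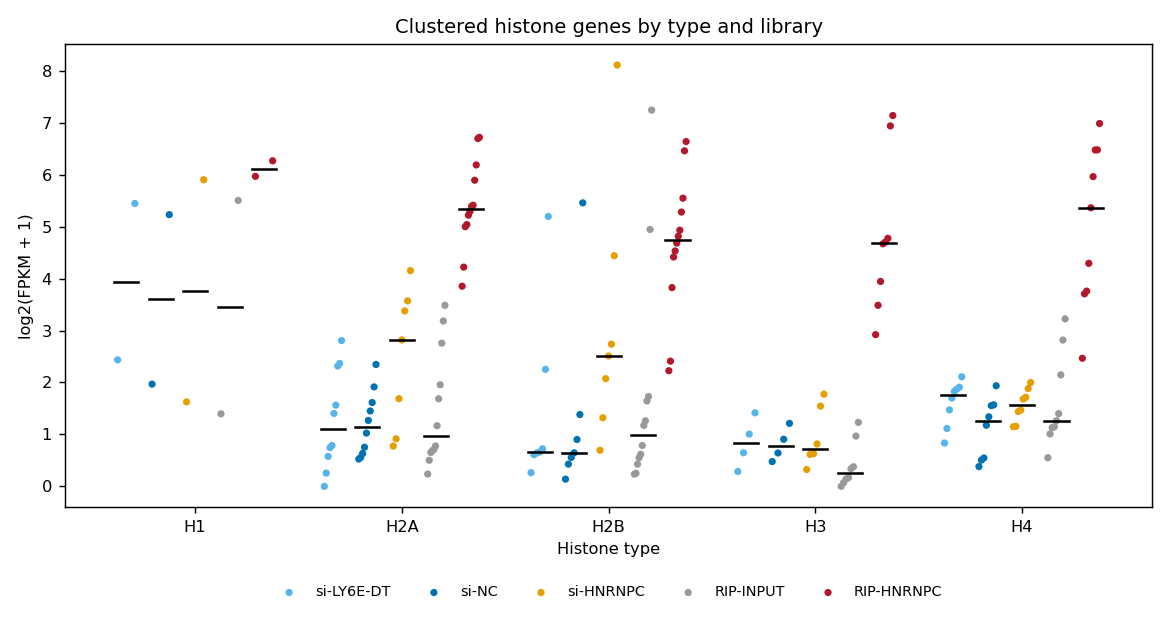
Each point is 1 histone gene in 1 library, on the scale log2(FPKM + 1) (vertical axis), grouped by histone type (horizontal axis) and coloured by library, with black bars for the median. In every type the median of the immunoprecipitate is the highest, and the highest points of H1 and H2B in the other libraries are HIST1H1C and HIST1H2BK.

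Outside the immunoprecipitate a pair of genes made up most of the histone signal. HIST1H1C, which encodes the linker histone H1.2, and HIST1H2BK, an H2B gene, together took 60.4% of the histone FPKM in the si-LY6E-DT library, 68.9% in si-NC, 75.6% in the si-HNRNPC-labelled library and 65.6% in the input. In the immunoprecipitate they took 8.91%, and the highest genes were HIST1H3C and HIST1H4B. The make-up by type differed in the same way. H2B took 63.9% and H1 15.5% of the histone FPKM in the input, against 21.1% and 7.02% in the immunoprecipitate. H3 took 1.06% in the input and 18.8% in the immunoprecipitate, H4 8.32% and 23.0%, and H2A 11.3% and 30.02%. The summed FPKM was 117 times the input for H3, 18.2 times for H4, 17.6 times for H2A, 2.99 times for H1 and 2.18 times for H2B. The H3 sum in the input was only 3.14 FPKM over 8 genes. For H2B, HIST1H2BK alone held 151 of 190 FPKM in the input. By the median log2 change per gene, H2B (3.55) lay above H4 (3.22), so the ratios of sums do not rank the types.

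The immunoprecipitate against its input asks which mRNAs are over-represented in RNA recovered with HNRNPC. A gene is called higher or lower here when (FPKM + 1) differs at least 2-fold and the mean FPKM of both libraries is at least 1, a rule of size and not a test. Of 43 histone genes, 41 were higher in the immunoprecipitate and none was lower, while 24.2% of all 10284 genes were higher and 36.9% lower. The median log2 change on the FPKM + 1 scale was 3.75 for the histone genes and −0.34 for all genes. The histone median depends on the added constant, and was 4.69 with 0.1 and 2.34 with 5 in place of 1. Of the 43 genes, 20 were under 1 FPKM in the input and passed the filter through the immunoprecipitate, so they could not come out lower. Among the 23 with at least 1 FPKM in the input, a restriction chosen after the data were seen, 21 were higher and none lower, with a median of 3.22. With that restriction 20.2% of 10062 genes were higher and 39.1% lower. After rescaling each library to leave out the 20 highest genes and those of ribosomal proteins and mitochondria, 42 of 43 histone genes were higher. With that rescaling 27.9% of all genes were higher and 32.7% lower. Histone genes, 43 of the 10284 tested, made up 3 of the 10 genes with the largest log2 change, 15 of the first 50 and 29 of the first 200. These ranks include genes under 1 FPKM in the input that could not come out lower, such as HIST1H3B and HIST1H2AH in the first 10. No ranking was made with at least 1 FPKM required in the input.

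**Figure D2:**
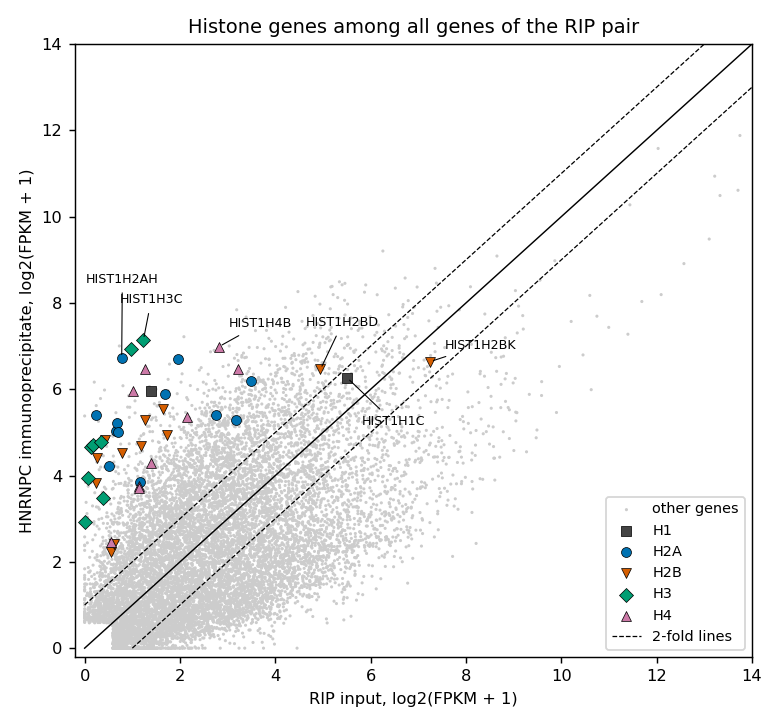
Each point is 1 gene at its input level (horizontal axis) and its immunoprecipitate level (vertical axis), both as log2(FPKM + 1). Grey points are other genes, coloured points are histone genes by type, the solid line is equality and the dashed lines are 2-fold. Of 43 histone genes, 41 lie above the upper dashed line, and HIST1H1C and HIST1H2BK lie between the lines.

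H1 histones bind linker DNA between nucleosomes, and the 2 measured genes differed. HIST1H1C was at 42.6 FPKM in the si-LY6E-DT library, 36.6 in si-NC, 58.9 in the si-HNRNPC-labelled library, 44.4 in the input and 76.0 in the immunoprecipitate. The immunoprecipitate was the highest library, but at 0.76 on the log2 scale it fell short of 2-fold against the input. HIST1H1E, which encodes H1.4, was at 4.41, 2.91, 2.09, 1.63 and 61.6 FPKM in the same order. Its 4 other libraries lay within 1.63 to 4.41 FPKM, and it was higher in the immunoprecipitate than in the input by 4.57 on the log2 scale.

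H2A and H2B pair as a dimer in the nucleosome. All 12 H2A genes were higher in the immunoprecipitate than in the input (24.2% of all genes were), with a median log2 change of 4.25. With at least 1 FPKM required in the input, 6 of 6 were higher (20.2% of all genes), with a median of 2.69. The H2A genes below that level could not come out lower. HIST1H2AH was listed at 0 in the si-LY6E-DT library and was at 0.439 FPKM in si-NC, 0.714 in the input and 104 in the immunoprecipitate; it was not listed in the si-HNRNPC-labelled library. HIST1H2AM was at 1.96 FPKM in the si-LY6E-DT library, 2.06 in si-NC, 6.05 in the si-HNRNPC-labelled library, 2.88 in the input and 103 in the immunoprecipitate. HIST2H2AA4 was at 6.002, 4.09, 16.8, 10.2 and 71.9 FPKM in the same order, the highest input level of the H2A genes and a log2 change of 2.70. The rise of these H2A genes thus spanned a wide range, from genes below 1 FPKM in the input to one above 10. HIST2H2AC was at 1.65, 1.41, 2.22, 2.22 and 58.5 FPKM in that order. HIST1H2AB was listed only in the RIP pair, at 0.571 FPKM in the input and 31.9 in the immunoprecipitate. The smallest H2A change was that of HIST1H2AC (8.08 to 38.2 FPKM, log2 2.11) and the largest that of HIST1H2AH (log2 5.94). The lowest H2A level in the immunoprecipitate was 13.5 FPKM, for HIST1H2AG.

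Of 12 H2B genes, 11 were higher in the immunoprecipitate than in the input (24.2% of all genes were), with a median log2 change of 3.55 over the type. With at least 1 FPKM required in the input, 5 of 6 were higher (20.2% of all genes), with a median of 3.36. The H2B genes below that level could not come out lower. The exception, HIST1H2BK, was at 35.7 FPKM in the si-LY6E-DT library, 43.0 in si-NC, 276 in the si-HNRNPC-labelled library, 151 in the input and 98.6 in the immunoprecipitate. It was the only one of the 43 genes below its input level, by a log2 change of −0.61, short of 2-fold. HIST1H2BD was at 3.77, 1.61, 20.7, 29.8 and 87.0 FPKM in the same order and was higher by 1.51 on the log2 scale. HIST1H2BO was at 0.651, 0.868, 4.69, 2.12 and 45.8 FPKM in that order. HIST1H2BM (0.724 to 22.1 FPKM) and HIST1H2BL (0.191 to 20.3) were listed only in the RIP pair. The H2B genes printed here spanned 0.191 to 151 FPKM in the input and 20.3 to 98.6 in the immunoprecipitate. They were picked by highest mean FPKM, which favours high immunoprecipitate levels, so the narrower range there is not read as a result. The lowest H2B levels in the immunoprecipitate were 3.68 FPKM for HIST1H2BE and 4.32 for HIST1H2BN.

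H3 and H4 form the tetramer at the centre of the nucleosome, and H3 carries the most studied methylation and acetylation marks. All 8 H3 genes listed in the RIP pair were higher in the immunoprecipitate (24.2% of all genes were), with a median log2 change of 4.48. Only 1 of them, HIST1H3C, reached 1 FPKM in the input, so the others could not come out lower. HIST1H3C was at 1.67 FPKM in the si-LY6E-DT library, 1.32 in si-NC, 1.92 in the si-HNRNPC-labelled library, 1.35 in the input and 140.0 in the immunoprecipitate, the highest histone level there. HIST1H3B was at 1.01, 0.874, 2.42, 0.955 and 122 FPKM in the same order and had the largest log2 change of the 43 genes, 5.97, the 2nd largest of all genes tested. Both were below 3 FPKM in every other library. HIST2H3D (0.265 to 26.4 FPKM), HIST2H3C (0.122 to 25.1) and HIST2H3A (0.103 to 24.4) were near each other in both RIP libraries, and in the si-HNRNPC-labelled library they were at 0.251, 0.547 and 0.531 FPKM. HIST1H3J was listed at 0 in the input and at 6.57 FPKM in the immunoprecipitate, so no fold is given.

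All 9 H4 genes were higher in the immunoprecipitate than in the input (24.2% of all genes were), with a median log2 change of 3.22. With at least 1 FPKM required in the input, 8 of 8 were higher (20.2% of all genes), with a median of 3.24. HIST1H4B was at 3.32 FPKM in the si-LY6E-DT library, 1.97 in si-NC, 1.76 in the si-HNRNPC-labelled library, 6.04 in the input and 126 in the immunoprecipitate. HIST1H4C was at 2.56, 2.83, 2.997, 8.35 and 88.2 FPKM in the same order. HIST1H4K was at 2.25, 1.94, 2.69, 1.403 and 88.0 FPKM in that order. For these genes the other 4 libraries lay below 9 FPKM and did not reach the immunoprecipitate. HIST1H4J was at 1.77, 1.53, 2.21, 1.01 and 61.4 FPKM, and HIST1H4A at 1.16, 1.26, 2.28, 3.43 and 40.2. The lowest H4 level in the immunoprecipitate was that of HIST4H4, the chromosome 12 gene (0.465 to 4.52 FPKM).

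**Figure D3:**
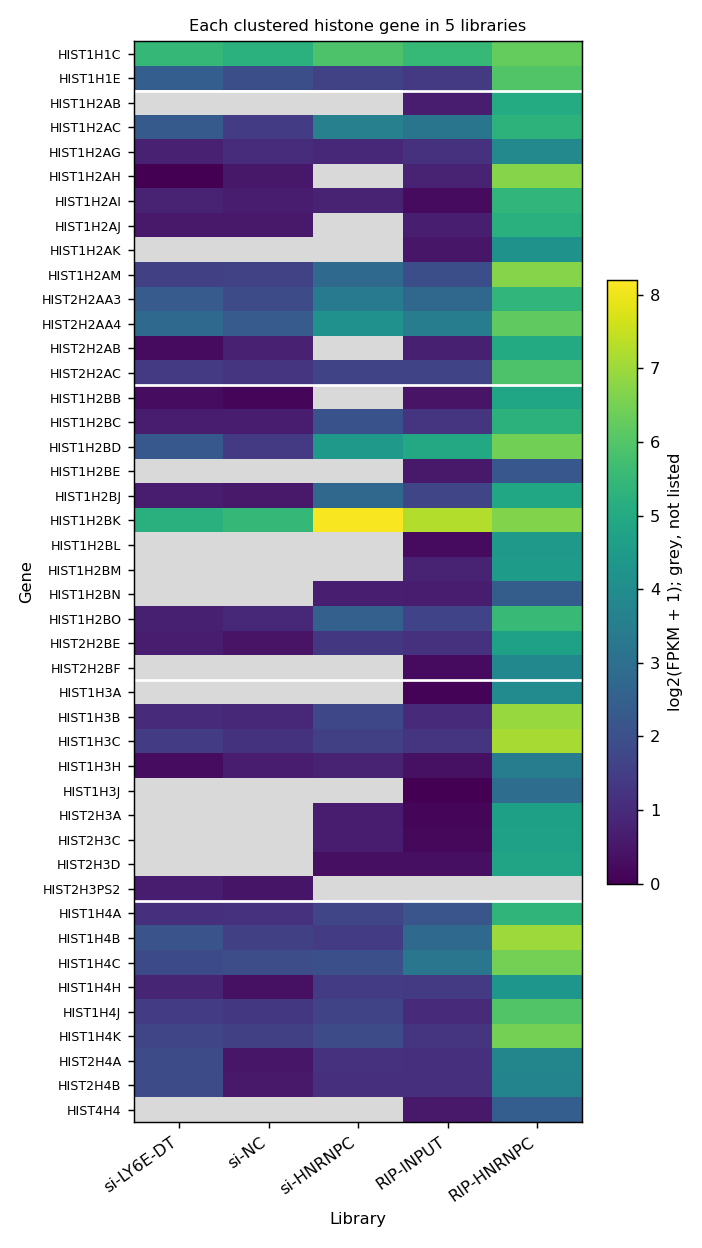
Each row is 1 of the 44 histone genes, ordered by type with white lines between types, and each column is 1 library. Colour shows log2(FPKM + 1) and grey marks a gene that the table does not list. The RIP-HNRNPC column is bright for most genes, with lower levels such as HIST1H2BE (3.68 FPKM) and HIST4H4 (4.52 FPKM) and a grey cell for HIST2H3PS2, while HIST1H1C and HIST1H2BK are bright in every column.

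Several of these genes are too alike for short reads to separate. Coding sequences of at least 98% identity joined HIST1H4J with HIST1H4K, HIST2H3A with HIST2H3C, HIST2H3D with HIST2H3PS2, HIST2H4A with HIST2H4B and HIST2H2AA3 with HIST2H2AA4. These 10 genes are reported as uncertain, since the counting could divide reads between the copies. Without them, 32 of 34 histone genes were higher in the immunoprecipitate than in the input, against 24.1% of all genes. Over the other genes with a same-length relative of their type, the closest relative was at least 83.3% identical.

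The change was larger where the input level was lower, while the immunoprecipitate levels were closer together. The 4 genes with at least 10 FPKM in the input (HIST1H2BK, HIST1H1C, HIST1H2BD and HIST2H2AA4) had FPKM ratios of 0.655 to 7.05. The 15 genes from 1 to under 5 FPKM had ratios of 10.1 to 104 with a median of 21.6. The 19 genes above 0 and under 1 FPKM had ratios of 7.90 to 289 with a median of 74.3. In the immunoprecipitate the medians of these classes were 81.5, 40.2 and 24.4 FPKM. The ratio contains the input level by which the classes were made, so the ratios are a description.

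Against the 3 cell libraries the pattern was the same in direction. The immunoprecipitate was at least 2-fold higher than si-NC in 30 of 30 histone genes (20.3% of all genes tested were), than si-LY6E-DT in 29 of 30 (20.1%) and than the si-HNRNPC-labelled library in 28 of 30 (21.3%). None was lower against si-NC or si-LY6E-DT, where 38.4% and 40.4% of all genes were. Histone genes under 1 FPKM in the cell library passed the filter through the immunoprecipitate and could not come out lower. With at least 1 FPKM required in the cell library, chosen after the data were seen, 16 of 16 were higher than in si-NC. Against si-LY6E-DT 17 of 18 were higher, and against the si-HNRNPC-labelled library 21 of 23. The shares of all genes higher under this restriction are not given, so these counts have no background share beside them. The median log2 changes of the histone genes were 4.36, 4.23 and 3.21 against si-NC, si-LY6E-DT and the si-HNRNPC-labelled library. Those of all genes under the same restriction were −0.58, −0.64 and −0.61. HIST1H1C missed 2-fold against si-LY6E-DT and the si-HNRNPC-labelled library. HIST1H2BK was lower in the immunoprecipitate than in the si-HNRNPC-labelled library, with a log2 change of −1.47, as were 39.7% of all genes tested. These comparisons share the immunoprecipitate and are not independent. Of the 26 genes listed in all 5 libraries, 24 were at least 2-fold above each of the other 4, against 12.8% of 10335 genes, and 25 had their highest level there. HIST1H1C was highest there without reaching 2-fold, and HIST1H2BK was highest in the si-HNRNPC-labelled library.

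Short and intronless transcripts outside the histone set did not share this pattern. The histone genes' longest coding transcripts had a median of 463 bases and a GC content of 59.2%, against 3408 bases and 47.7% in other genes. Of 392 other genes with a longest coding transcript under 1000 bases, 10 (2.55%) were higher and 346 lower in the immunoprecipitate, with a median log2 change of −2.58. Of 169 other genes with 1 exon, 29 (17.2%) were higher, with a median of −0.72. Only 15 other genes were both short and of 1 exon, of which 1 was higher and 11 lower. Over all 10182 other genes, 23.9% were higher. Among histone genes, 26 of 28 that were short and of 1 exon were higher, as were 14 of 14 with a longer or spliced annotated transcript. Those under 1 FPKM in the input could not come out lower. With at least 1 FPKM required there, 20 of 22 histone genes with an annotated transcript were higher, with a median of 3.24.

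**Figure D4:**
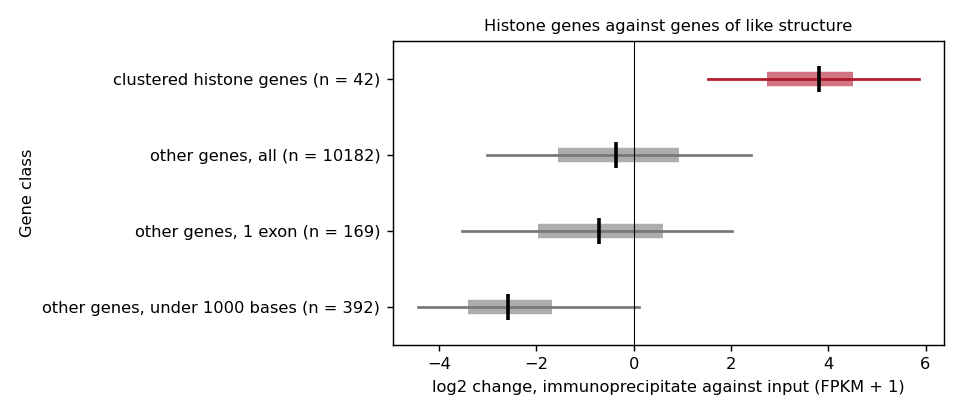
The horizontal axis is the log2 change of the immunoprecipitate against input on the FPKM + 1 scale, and each row is a class of genes with its number. The black tick is the median, the box spans the middle 50% and the line the 5th to 95th percentile over genes, which are not replicates. The histone genes (median 3.81 over the 42 with an annotated transcript) lie above the classes of other genes, and short genes lie lowest (median −2.58).

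Annotated 3' ends divided the histone genes. The polyadenylation signal AATAAA stood in the last 40 bases of an annotated transcript in 14 genes, and 28 had none. The sequence was matched without regard to the stem-loop. In HIST1H4J, counted among the 14, the transcript ends 6 bases past the stem-loop and AATAAA lies before it. The genes with the signal had a median of 24.6 FPKM in the immunoprecipitate and an FPKM ratio to input of 2.92 to 237 with a median of 11.1. Those without it had a median of 39.0 FPKM and a ratio of 0.655 to 289 with a median of 42.4. These ranges overlap over most of their length. None of the genes without an annotated base after the stop codon could show the signal there, and none did, so the class reflects the annotation as well as the transcripts. HIST1H2BD has AATAAA near an annotated transcript end, but whether the same transcript holds its stem-loop was not resolved. It rose from 29.8 to 87.0 FPKM, and HIST1H3H rose from 0.299 to 10.2. How the libraries were selected for poly(A) RNA or depleted of ribosomal RNA is not given in the sources used here, and its part in these levels was not tested.

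The histone genes of each chromosomal group had a median above the input. On GRCh38, 15 of them lay on chromosome 6 between 26020490 and 26285638, 4 between 27125897 and 27147515, and 12 between 27807444 and 27893843. Another 10 lay on chromosome 1 between 149782689 and 149887916. The median levels in the immunoprecipitate were 40.2, 64.1, 29.2 and 24.9 FPKM in these 4 groups, with median log2 changes of 3.87, 2.94, 4.03 and 3.90. The only other gene of the tables inside these spans was HFE, the hemochromatosis gene, which lies among the first group. HFE was at 1.05 FPKM in the input and 3.03 in the immunoprecipitate, a log2 change of 0.98, short of 2-fold.

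Histone variant genes did not rise with the clustered genes. Of 18 variant genes listed for this purpose, 11 were in the tables and 10 passed the filter. Of these 10, 1 was higher and 5 were lower in the immunoprecipitate, against 24.2% and 36.9% of all genes. Their median log2 change was −1.17, against −0.34 over all genes. H2AFZ, the replacement histone of promoter nucleosomes, fell from 131 to 12.3 FPKM (log2 −3.32). H2AFJ fell from 21.9 to 2.55, the linker histone gene H1FX from 149 to 25.1, and H3F3B, which encodes H3.3, from 46.7 to 16.9. H2AFX, the variant phosphorylated at DNA breaks and the gene that shares the stem-loop, fell from 67.1 to 13.8 FPKM (log2 −2.20). The centromere gene CENPA rose from 5.30 to 15.4 FPKM (log2 1.38). H3F3A, which encodes the same H3.3 protein as H3F3B, was at 51.0 and 66.3 FPKM, and H2AFV at 26.9 and 52.1, both short of 2-fold. Each of the 10 variants had a lower log2 change than every clustered gene of its own histone type. The variants were at 5.30 to 149 FPKM in the input, while 6 of 12 clustered H2A and 1 of 8 clustered H3 genes reached 1 FPKM there. The clustered H1 side held 2 genes. Variants and clustered genes were not matched for input level, and its part in this order was not tested.

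**Figure D5:**
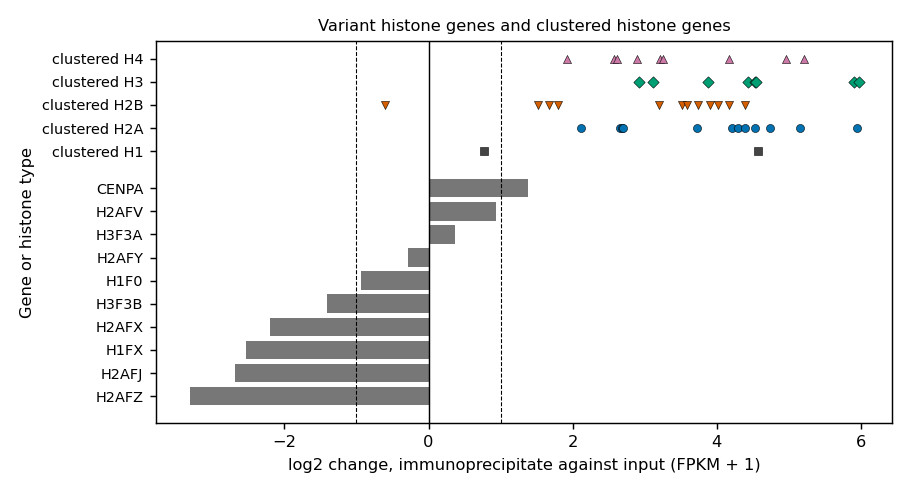
The horizontal axis is the log2 change of the immunoprecipitate against input on the FPKM + 1 scale, with dashed lines at 2-fold. The lower rows are bars for the 10 variant histone genes that passed the filter, and the upper rows show each clustered gene as a point by type. The variants run from −3.32 (H2AFZ) to 1.38 (CENPA), while 41 of 43 clustered genes lie beyond 2-fold on the right.

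The genes that make, process and use histone mRNA were examined in the same pair. Of 29 genes for 3' end processing and decay of histone mRNA, 6 were higher and 12 lower (median log2 change −0.49), near the shares of 24.2% and 36.9% over all genes. ERI1, the exonuclease that trims the histone stem-loop, rose from 0.913 to 25.6 FPKM, and the exonuclease XRN1 from 1.14 to 16.4. SRRT, which links the cap-binding complex to 3' processing, fell from 23.4 to 1.82, and the nuclear exosome subunit EXOSC10 from 16.2 to 1.72. SLBP itself, named after its value was seen, fell from 54.6 to 10.5 FPKM (log2 −2.27). Of 11 regulators of histone gene transcription, 4 were higher and 1 lower (median −0.11). The transcription factor E2F3 rose from 0.458 to 16.6 FPKM, the octamer-binding POU2F1 from 2.04 to 9.5998 and NPAT, the coactivator of histone gene transcription, from 3.51 to 9.68, while E2F1 fell from 24.97 to 2.50. Of 23 histone chaperones and acetyltransferases of new histones, 1 was higher and 11 lower (median −0.70). SSRP1 fell from 73.2 to 6.18 FPKM, NASP, a carrier of H3 and H4, from 31.2 to 2.17, ASF1B from 29.5 to 3.21 and CHAF1A from 19.4 to 2.29. Of 34 DNA replication and S phase genes, 3 were higher and 21 lower (median −1.37). The thymidine kinase TK1 fell from 52.0 to 3.43 FPKM, the helicase subunit MCM7 from 50.8 to 4.66, the ligase LIG1 from 13.95 to 1.303 and the licensing factor CDT1 from 12.96 to 1.22. The S phase mRNAs as a list therefore lay below the median of all genes (−0.34) and the clustered histone mRNAs above it.

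The library labelled si-HNRNPC had more mRNA of H2A and H2B genes than si-NC, while 1 of 10 tested H1, H3 and H4 genes was higher. Of 20 histone genes that passed the filter, 10 were at least 2-fold higher and none was lower, against 12.4% higher and 9.44% lower of all 10247 genes. By type, 4 of 5 H2A and 5 of 5 H2B genes were higher, against 1 of 6 H4 genes and none of the 2 H1 and 2 H3 genes. The difference between types was not tested. In si-NC 4 of the 10 higher genes, HIST1H2BC, HIST1H2BJ, HIST1H2BO and HIST1H4H, were under 1 FPKM. They passed the filter through the other library and could not come out lower. HIST1H2BK was at 276 FPKM against 43.0 in si-NC (log2 2.65), HIST1H2BD at 20.7 against 1.61 (3.06), and HIST1H2BJ at 5.67 against 0.470 (2.18). HIST1H2AC was at 10.9 FPKM against 1.73 (log2 2.12), HIST2H2AA4 at 16.8 against 4.09 (1.81) and HIST2H2AA3 at 9.40 against 2.77 (1.46). HIST1H1C was at 58.9 against 36.6 (0.67) and HIST1H4C at 2.997 against 2.83 (0.06), both short of 2-fold. With at least 1 FPKM required in si-NC, chosen after the data were seen, 6 of 16 were higher and none lower, against 11.2% and 9.7% of all genes. They were 4 of 6 H2A genes and both of the 2 H2B genes left, with none of 5 H4, 2 H1 and 1 H3 genes. In these bulk libraries, more cells in S phase and more histone RNA per cell cannot be told apart.

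Against the RIP input, which carries no knockdown label, the same library had few histone genes past 2-fold, and the balance of directions depended on the settings. Of 24 histone genes, 1 was higher and 2 were lower, against 9.11% and 4.03% of all 10185 genes. With a constant of 0.1 in place of 1, 6 were higher and 2 lower (13.4% and 6.53% of all genes), and at 1.5-fold 10 were higher and 2 lower (23.6% and 12.2%). HIST1H2BJ was at 5.67 FPKM against 2.32 in the input (log2 1.01). The H4 genes HIST1H4B (1.76 against 6.04, log2 −1.35) and HIST1H4C (2.997 against 8.35, log2 −1.23) were lower. HIST1H2BK was at 276 against 151 FPKM (log2 0.87) and HIST1H2BD at 20.7 against 29.8 (−0.51), both short of 2-fold. In this library, of the lists above, 2 of 34 S phase genes were higher and 5 lower than in si-NC, and 3 of 30 genes for 3' processing and decay were higher and 3 lower, against 12.4% and 9.44% of all genes. GINS3, a subunit of the replicative helicase complex, was at 16.2 FPKM against 2.21 in si-NC. POLA1, the catalytic subunit of DNA polymerase alpha, was at 2.41 against 15.3.

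The 2 control-type libraries differed from each other in histone genes. Of 18 that passed the filter, none was higher and 7 were lower in si-NC than in the RIP input, against 14.2% higher and 10.4% lower of all 10264 genes. They were 2 H2A, 3 H2B and 2 H4 genes. HIST1H2BD was at 1.61 FPKM in si-NC against 29.8 in the input (log2 −3.56), HIST1H2BK at 43.0 against 151 (−1.79) and HIST1H2AC at 1.73 against 8.08 (−1.73). HIST1H4B (1.97 against 6.04) and HIST1H4C (2.83 against 8.35) were lower as well. The comparison of the si-HNRNPC-labelled library with si-NC uses the same si-NC library, and HIST1H2BD, HIST1H2BK and HIST1H2AC are among its higher genes.

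Histone mRNA differed little between si-LY6E-DT and its control. LY6E-DT itself was not measured here, so its knockdown was not checked. Of 17 histone genes that passed the filter, 2 were higher and none lower in the si-LY6E-DT library than in si-NC, against 1.66% higher and 0.888% lower of all 10473 genes. They were the near-identical H4 genes HIST2H4A (2.66 against 0.419 FPKM, log2 1.37) and HIST2H4B (2.75 against 0.460, log2 1.36). Both are under 3 FPKM and share their coding sequence, so they count as 1 observation at most. With at least 1 FPKM required in si-NC, none of 16 histone genes was higher or lower, against 1.15% and 0.993% of all genes. HIST1H1C (42.6 against 36.6 FPKM), HIST1H2BK (35.7 against 43.0) and HIST1H2AC (3.98 against 1.73) did not reach 2-fold. The median log2 change was 0.21 over the 17 genes and 0.04 over all genes. No gene of the variant, 3' processing, transcription and chaperone lists reached 2-fold in this comparison, and 1 of 34 S phase genes was higher.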

How the data were processed

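Gene expression was measured in 5 RNA libraries of MDA-MB-231 cells, 1 per group, and groups follow the library labels. The authors deposited 1 table of FPKM per library, per the file headers. HISAT2 2.1.0, StringTie 1.3.3, cutadapt 1.17, FastQC 0.11.7 and the build GRCh37 are named in the submitters' processing notes, with no roles or settings. FPKM is relative to each library's total, so it also depends on what abundant genes take. The tables list different genes, so cross-table comparisons use genes listed in both.

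Changes were log2((FPKM + 1)/(FPKM + 1)) for genes with a mean FPKM of at least 1, called at 2-fold. This scale understates changes of low genes. Levels are printed for up to 5 genes of each type with the highest mean, and for genes past 2-fold with a mean of at least 5 FPKM; lists give up to 4 genes by the same minimum. Other named genes were chosen after their values were seen. The histone genes and lists were chosen with earlier results of these data known. Of 12497 gene IDs, 12408 matched GENCODE 29 (GRCh38); 42 histone genes matched by ID and HIST1H4B by symbol, and HIST2H2AA3 was unmatched. No annotation of GRCh37 was used and no coordinates were converted. Alternatives were pseudocounts of 0.1 and 5, filters, fold limits, scalings and leaving out near-identical genes. The tools were pandas 2.3.3, numpy 2.4.6, matplotlib 3.10.9 and Python 3.11.15, and the calling was tested on simulated data.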

Additional observations from a re-analysis of the deposited data

How the results depend on the processing

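No paired analysis was possible because each group had 1 library. The count of histone genes at least 2-fold above all 4 other libraries (24) stayed within 1.5 times under every alternative run for it. So did the 41 higher than input, except under the settings given next. After quantile normalization 25 of 26 tested were higher (28.2% of all genes). With at least 1 FPKM in the input 21 of 23 were higher (20.2% of all genes). The 10 higher in the si-HNRNPC-labelled library than in si-NC became 4 with a pseudocount of 5 or a 4-fold limit, 5 of 6 with a mean of at least 5 FPKM, and 6 with at least 1 FPKM in si-NC. Its 3 differences from the input (1 higher, 2 lower) became 8 (6 higher, 2 lower) with a pseudocount of 0.1 and 12 (10 higher, 2 lower) at 1.5-fold, which turned the balance. They became 0 with a pseudocount of 5 or at 4-fold, and 1 with a mean of at least 5 FPKM. After centring, quantile normalization or rescaling without abundant genes, 0 were higher and 2 lower. The 2 genes higher in si-LY6E-DT became 4 with a pseudocount of 0.1 or at 1.5-fold. They became 0 with a pseudocount of 5, a mean of at least 5 FPKM, a 4-fold limit, at least 1 FPKM in si-NC, or without near-identical genes. The 7 lower in si-NC than in the input became 2 with a pseudocount of 5, 4 with a mean of at least 5 FPKM and 1 at 4-fold. The cause of these moves was not tested beyond the lower number of genes that stricter filters leave. Centring on all genes shifts the immunoprecipitate against input by 0.34 on the log2 scale and made 42 of 43 histone genes higher. With centring 30.3% of all genes were higher and 29.4% lower. With a pseudocount of 5, 19 single values lost 2-fold, with 0.1 11 gained it, and none changed sign past 2-fold. Depth is unknown and most levels outside the immunoprecipitate were under 5 FPKM, so small differences there were not resolved.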
